A study of Mus musculus with 72 samples.

Results

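Whole brain of adult male mice at postnatal day 90 (P90) was compared with whole brain of male pups at postnatal day 7 (P7) in 3 inbred strains. The arrays were chosen by their titles, 9 of P90 brain and 9 of P7 brain, which are 18 of the 72 arrays of the series. Each stage held 3 arrays of C57BL/6J (B6), 3 of DBA/2J (D2) and 3 of 129S2 (129), with no mutation or treatment given in the labels, and the P90 animals were 11 to 14 weeks old. The P90 animals were bought, C57BL/6J and DBA/2J from The Jackson Laboratory and 129S2 from Charles River, whereas the P7 pups were offspring bred from such animals, so purchase and stage cannot be told apart. Brains were frozen after dissection, and TRIzol-extracted, column-purified RNA was converted to biotin-labelled cRNA in 1 cycle and hybridised to Affymetrix arrays of 45101 probe sets. The other arrays of the series hold liver of both stages and both tissues of embryos (E14.5) and newborn pups (P1).

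The mouse brain at P7 is still being built. Neurons made before and around birth extend axons and form synapses, granule cell precursors divide in the cerebellum, and oligodendrocyte precursors have just begun to wrap axons in myelin, the lipid-rich sheath that speeds conduction. By early adulthood myelin covers the main tracts, many channels and receptors have exchanged juvenile subunits for adult ones, and division is largely restricted to glial precursors and a few stem cell niches.

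The deposited values are log2 RMA signals in which each stage had been normalized apart, with array medians of 6.41 to 6.45 at P90 and of 7.21 to 7.26 at P7. The 18 arrays were therefore quantile normalized together, the brightest probe set on average stood for each of 18194 genes, and the mean of 3 P90 arrays minus the mean of 3 P7 arrays was taken within each strain. Values below are log2 signals on that scale, differences are P90 minus P7, and the error is the SD over the 3 strains (n = 3). A gene is said to have risen or fallen where the difference was at least 1 log2 unit (2-fold) in the same direction in each strain and at least 1 of the 6 group means lay above 6.83, which is the median signal. Normalization set and stage cannot be told apart, so no p-value is given for a difference between the stages. For 58.1% of all genes the arrays of the stages did not overlap, so a lack of overlap is common here. Under these rules 630 of 12611 genes above the filter rose (5.0%) and 1169 fell (9.27%). Of all 18194 genes on the array, 3.46% rose and 6.43% fell. Those shares belong beside the list counts below that are out of all measured members. A list count near them is not a result about that list. The median difference over all genes was -0.12. Without joint normalization that median was -0.86, and this shift applies to every difference on the deposited scale.

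Some arrays stood apart from their groups. The P7 array numbered 2 of each strain had 35 (B6), 56 (D2) and 46 (129S2) genes at least 2-fold away from both other arrays of its group, against 0 to 6 genes on the other P7 arrays, and 22 of these genes were high on all 3 of those arrays. The P90 129S2 array 2 had 29 such genes, against 0 to 3 on the other P90 arrays. At 35 probe sets that set 129S2 apart from the other strains at P7, this array lay nearer to the 129S2 level at 19, whereas the other P90 129S2 arrays did so at 28 each and the P90 arrays of the other strains at 9 to 12. Without these 4 arrays 612 genes rose and 1190 fell, of which 582 and 1112 were the same genes, and a named gene that lost its call without them is said to have done so beside its value. Probe sets of the same gene also disagreed: of 481 further probe sets of genes that rose, 82.7% were higher and 50.3% met the 2-fold rule, and of 681 of genes that fell, 77.7% were lower and 31.9% met it. Where averaging all probe sets of a named gene moved its difference by over 1.5 times, the averaged value stands beside it, and further probe sets, those above the filter, are given for some of the genes.

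All 7 neuron markers fixed for the check of the tissue lay above the filter on every array of both stages. They were not level between the stages: 1 rose, 1 fell, and differences ran from -1.44 to 1.69 with a median of 0.73. No member of the lists for blood (5 genes), pituitary (7) or muscle (5) rose or fell. Only 1 blood, 2 pituitary and 1 muscle gene passed the filter, so most members could not be called. Without regard to the filter, differences ran from -1.83 to 0.98 for blood, -1.08 to 0.37 for pituitary and -0.21 to 1.27 for muscle. The liver list held 4 of 8 members that fell (3 without the 4 arrays that stood apart), among them Alb, the gene of serum albumin, at 6.05 to 7.05 with a median of 6.46 in P90 brain, against 9.42 to 11.48 with a median of 10.79 in P7 brain, a difference of -3.94 ± 1.07. Its stages did not overlap. The part of liver-type RNA in the results below was not tested.

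Myelin genes had the largest share of members that rose of all 55 gene lists. Of 16 measured genes of the myelin list, 14 rose, none fell, and the median difference was 2.48, against -0.12 over all genes. In 6 of the 14 the P7 level lay below the filter, so their sizes rest on a dim signal at P7. In bulk tissue, more cells of a type and more RNA per cell cannot be told apart.

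Mobp, a basic protein of the compact myelin sheath, showed the greatest rise of any gene. Its signal was 12.22 to 12.80 with a median of 12.51 in P90 brain, against 4.81 to 8.10 with a median of 6.19 in P7 brain. The difference was 7.35 in B6, 6.14 in D2 and 5.52 in 129S2 (mean 6.34 ± 0.93), an 80.8-fold higher signal. The stages were far apart on every array, although the P7 arrays themselves covered a wide range. Further probe sets of Mobp gave 6.75, 5.93 and 2.50.

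Mog, a glycoprotein of the outermost myelin layer, had signals of 8.53 to 9.20 with a median of 9.02 at P90, against 3.46 to 4.24 with a median of 3.75 at P7 (difference 5.18 ± 0.36). Mal, a proteolipid that sorts membrane to the sheath, had 11.17 to 11.84 with a median of 11.65 in P90 brain, against 6.05 to 6.74 with a median of 6.50 in P7 brain (5.09 ± 0.30). No array of either stage reached the range of the other for either gene. Ermn, a cytoskeletal protein of late oligodendrocytes, rose by 4.65 ± 0.08, with nearly equal values in the 3 strains. Opalin, a membrane protein of mature oligodendrocytes, rose by 3.89 ± 0.33, and by 2.07 when its probe sets were averaged.

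The list of earlier oligodendrocyte genes did not move as a block. Of 13 measured members, 2 rose, 1 fell, and the median difference was -0.59. Myrf, the transcription factor that switches on myelin genes, rose by 1.35 ± 0.22, and Bcas1, a marker of cells that are forming myelin, by 1.27 ± 0.31 (0.50 with probe sets averaged). Bcas1 lost the 2-fold call without the 4 arrays that stood apart, with a D2 difference of 0.96, and also without the P7 D2 array 2 or the P90 D2 array 3 alone. Bmp4, a secreted factor that newly formed oligodendrocytes express, fell to 6.03 to 6.19 with a median of 6.16 at P90, against 7.57 to 8.07 with a median of 7.85 at P7 (-1.67 ± 0.14). Its P90 level lay below the filter.

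**Figure D1:**
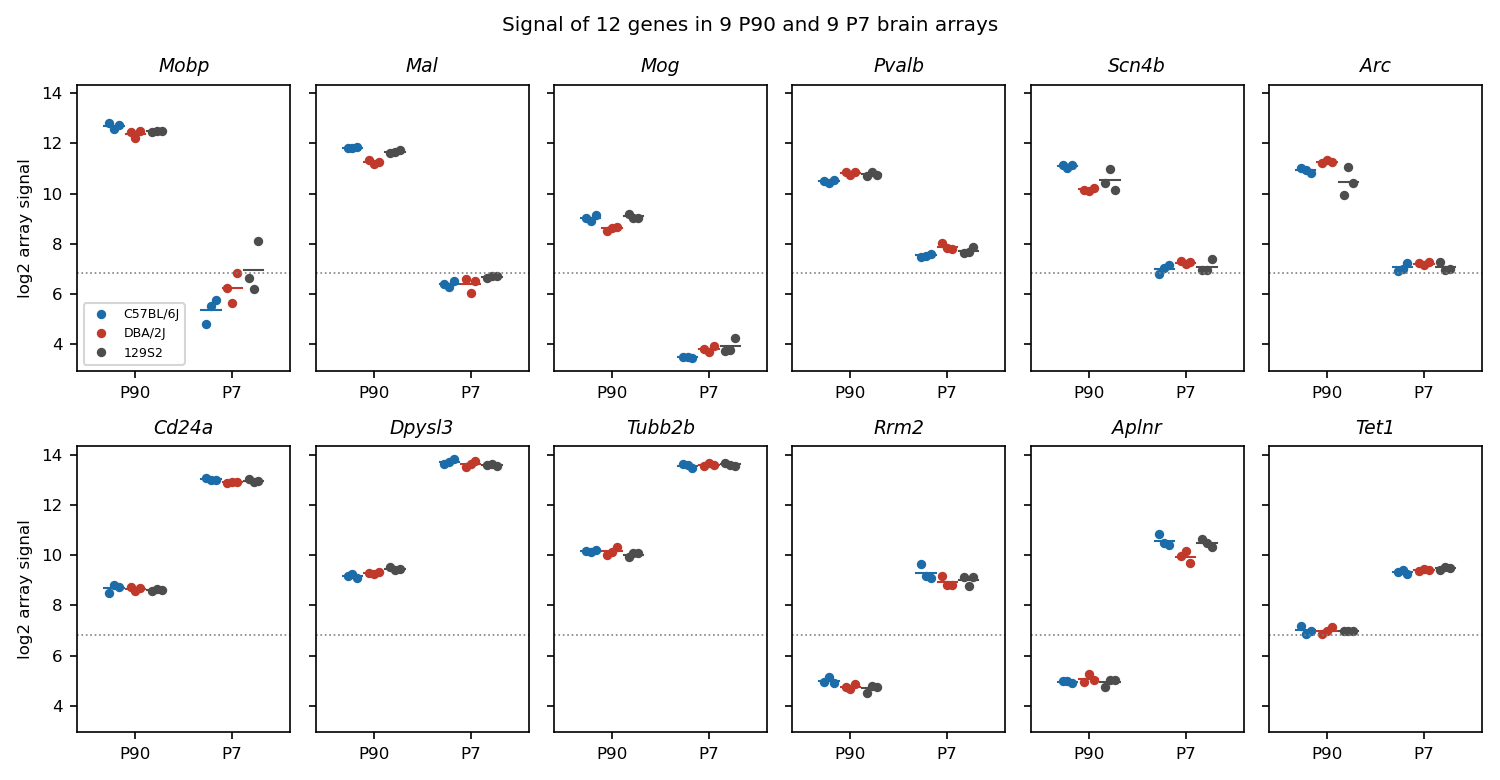
Log2 signal of genes that rose or fell, on each of the 9 P90 arrays (left of each panel) and the 9 P7 arrays (right), with strains in colour, short bars for the mean of 3 arrays and a dotted line at the filter of 6.83. Mobp lies at 12.22 to 12.80 on P90 arrays and 4.81 to 8.10 on P7 arrays, and Cd24a at 8.51 to 8.80 on P90 arrays and 12.89 to 13.08 on P7 arrays.

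Genes of newly made neurons fell together. Of 22 measured genes of that list, 15 fell and none rose, with a median difference of -1.67; without the 4 arrays that stood apart, 14 fell. Of those 15 genes, 14 stayed above the filter at P90, so both levels were measured.

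Cd24a, a surface glycoprotein of migrating and newly differentiated neurons, had 8.51 to 8.80 with a median of 8.67 in P90 brain, against 12.89 to 13.08 with a median of 12.95 in P7 brain. The difference was -4.34 in B6, -4.24 in D2 and -4.34 in 129S2 (mean -4.31 ± 0.06). The arrays of each stage lay within a narrow band, and the bands were well separated.

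Dpysl3, a collapsin response mediator of growing axons, had 9.09 to 9.53 with a median of 9.28 at P90, against 13.49 to 13.83 with a median of 13.62 at P7 (-4.34 ± 0.22), and a further probe set gave -3.37. Its relative Dpysl5 fell by 3.70 ± 0.27 (-2.27 with probe sets averaged). Tubb2b, a beta tubulin of developing neurons that is mutated in human cortical malformations, had 9.91 to 10.34 with a median of 10.12 in P90 brain, against 13.47 to 13.67 with a median of 13.60 in P7 brain (-3.48 ± 0.10). For each of these genes the lowest P7 array lay above the highest P90 array.

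Of 38 measured genes for axon growth and guidance, 10 fell and none rose (11 and none without the 4 arrays), with a median difference of -0.77. The members that fell most act at the cell surface or growth cone. St8sia2, the sialyltransferase that builds polysialic acid on the adhesion molecule NCAM, had 6.87 to 7.46 with a median of 7.08 at P90, against 9.99 to 10.76 with a median of 10.51 at P7 (-3.35 ± 0.29). Marcksl1, an actin-binding substrate of protein kinase C, fell by 2.63 ± 0.17. Draxin, a secreted chemorepellent of commissural axons, fell by 2.49 ± 0.20 to a level under the filter. L1cam, an adhesion molecule of axon bundles, fell by 2.10 ± 0.11. The other 28 members moved less than 2-fold in at least 1 strain.

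Neural progenitor genes were lower in part. Of 13 measured, 4 fell (3 without the 4 arrays), none rose, and the median difference was -1.02. Fabp7, the fatty acid binding protein of radial glia, had 10.65 to 11.07 with a median of 10.94 in P90 brain, against 13.16 to 13.50 with a median of 13.31 in P7 brain, so its stages did not overlap (-2.42 ± 0.11). Msi1, an RNA-binding protein of progenitors, fell by 2.06 ± 0.31, while its further probe set gave -0.55. The Notch pathway genes Hes5 and Dll3 fell by 1.20 ± 0.09 and 1.18 ± 0.16. The further probe set of Hes5 gave -0.52, and Dll3 lost the call without the P90 129S2 array 2. With probe sets averaged Msi1 had -1.22.

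Genes of the cell cycle were lower in P90 brain. Of 38 measured genes, 32 passed the filter, 21 fell (22 without the 4 arrays), none rose, and the median difference was -1.53. For 18 of the 21, the P90 level lay below the filter, so the sizes are those of a signal that sank into the dim range. Promoters of the 4 members that fell most are shown because they carry short motifs that are known from cell cycle genes. In the 200 bases before the annotated start, capitals mark the CCAAT box (CCAAT or its reverse complement ATTGG) and the cell cycle homology region (TTTGAA or TTCAAA); in the promoter of Ube2c a longer run of capitals marks overlapping matches on both strands. Sequences are from RefSeq, build GRCm38.p6, 5′ to 3′ on the strand of the gene.
Rrm2, chr12:24708054-24708253, plus strand: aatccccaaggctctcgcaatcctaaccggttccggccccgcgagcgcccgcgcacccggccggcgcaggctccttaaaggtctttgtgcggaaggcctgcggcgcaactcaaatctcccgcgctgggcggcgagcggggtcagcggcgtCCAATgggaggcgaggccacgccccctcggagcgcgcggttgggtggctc
Ect2, chr3:27153879-27154078, minus strand: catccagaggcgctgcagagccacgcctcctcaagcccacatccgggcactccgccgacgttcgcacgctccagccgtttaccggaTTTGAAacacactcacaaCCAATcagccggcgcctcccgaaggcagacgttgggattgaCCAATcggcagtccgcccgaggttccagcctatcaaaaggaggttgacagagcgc
Ube2c, chr2:164769729-164769928, plus strand: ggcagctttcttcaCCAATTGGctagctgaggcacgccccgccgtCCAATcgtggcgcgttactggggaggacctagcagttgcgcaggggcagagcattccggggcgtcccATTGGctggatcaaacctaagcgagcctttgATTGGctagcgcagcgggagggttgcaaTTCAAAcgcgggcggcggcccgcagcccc
Cenpf, chr1:189688087-189688286, minus strand: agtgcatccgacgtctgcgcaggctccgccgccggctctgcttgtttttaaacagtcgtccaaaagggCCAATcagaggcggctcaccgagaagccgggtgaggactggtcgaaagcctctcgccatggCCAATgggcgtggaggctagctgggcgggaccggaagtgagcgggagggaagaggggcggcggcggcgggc

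Over 250 bases before the start, searched on both strands, the CCAAT box was found in 15 of 17 promoters of the cell cycle members that fell (88.2%), against 35.8% of 14453 promoters of measured genes and 34.5% of all 27025 promoters. The cell cycle homology region was found in 9 of the 17 (52.9%), against 12% of promoters of measured genes and 16.3% of all. These are matches of letters and do not show that a factor binds there. The share in cell cycle genes that did not fall was not taken, so these shares do not tie the motifs to the fall. The promoters of Rrm2 and Cenpf hold the CCAAT box without the homology region, and those of Ect2 and Ube2c hold both.

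Rrm2, the regulatory subunit of the enzyme that makes deoxynucleotides, had 4.53 to 5.15 with a median of 4.79 in P90 brain, against 8.77 to 9.65 with a median of 9.11 in P7 brain (-4.26 ± 0.08; further probe sets -3.07 and -1.39). Ect2, an exchange factor that places the cleavage furrow, had 3.77 to 4.08 with a median of 3.98 at P90, against 7.17 to 7.80 with a median of 7.47 at P7 (-3.57 ± 0.13). The P90 levels of both lay under the filter on every array. Ube2c, a ubiquitin carrier of mitotic exit, had 4.80 to 5.16 with a median of 4.99 in P90 brain, against 7.68 to 8.21 with a median of 7.96 in P7 brain (-2.99 ± 0.07). Cenpf, a kinetochore protein, fell by 2.91 ± 0.08, which was -1.5 with probe sets averaged. These genes were each lower on all 9 P90 arrays than on any P7 array.

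In liver of the same stages 34 of the 38 genes met the rule for a fall and the list's median difference was -3.23, where 8.44% of all genes were lower and 4.05% higher by the same rule. The brain value for that count of all genes on the array was 6.43% lower and 3.46% higher. No test of the difference between the tissues was made.

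Of 12 genes for DNA methylation and gene silencing, 4 fell and 1 rose (5 and none without the 4 arrays), with a median difference of -1.01. Tet1, which oxidises methylated cytosine, had 6.88 to 7.17 with a median of 6.98 in P90 brain, against 9.23 to 9.53 with a median of 9.40 in P7 brain, without overlap (-2.40 ± 0.09; -0.88 when its probe sets were averaged). Uhrf1, which guides maintenance methylation after replication, fell by 2.74 ± 0.25, the de novo methyltransferase Dnmt3a by 1.97 ± 0.14, and Ezh2, the catalytic subunit of Polycomb complex 2, by 1.86 ± 0.09. Dnmt3a gave -2.08, -0.22 and 0.16 at its further probe sets above the filter and -0.77 with all averaged. Mbd2, a reader of methylated DNA, rose by 1.12 ± 0.11 and lost the 2-fold call without the 4 arrays.

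**Figure D2:**
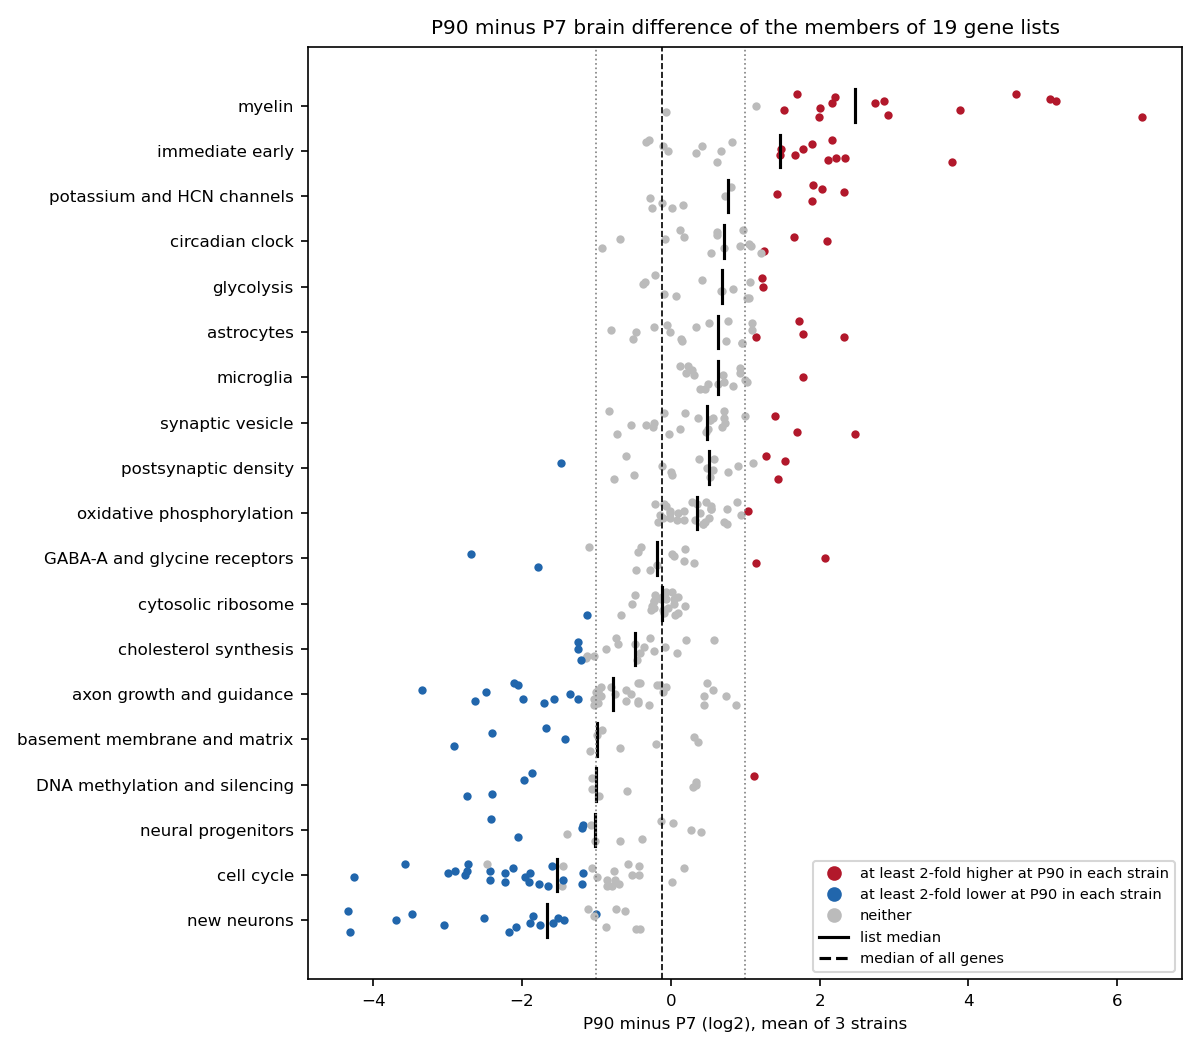
P90 minus P7 difference in log2 units (mean of 3 strains) of every measured member of 19 chosen gene lists, with members that rose in red, those that fell in blue and the others in grey, a black bar at each list's median, a dashed line at the all-gene median of -0.12 and dotted lines at 1 and -1. The myelin median is 2.48 and the new neuron median -1.67. Of all 55 lists, shown here or not, the medians of 19 change sign on the scale as deposited, where the all-gene median is -0.86. With median centring those of 7 do.

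NMDA receptors are glutamate-gated channels whose GluN2 subunits are known to be exchanged as synapses mature. Of 6 measured subunit genes 4 passed the filter, and of these 1 rose and 3 fell. Grin2c, the GluN2C subunit of cerebellar granule cells, had 8.12 to 8.34 with a median of 8.28 in P90 brain, against 6.07 to 6.76 with a median of 6.42 in P7 brain (1.85 ± 0.23). Its P7 level lay below the filter and its stages did not overlap. Grin2a, the GluN2A subunit of adult forebrain synapses, had 6.43 to 7.07 with a median of 6.68 at P90, against 4.71 to 5.28 with a median of 4.95 at P7, a difference of 1.75 ± 0.09, but no group mean reached the filter.

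Grin2b, the juvenile GluN2B subunit, had 8.65 to 9.65 with a median of 8.99 in P90 brain, against 11.03 to 11.45 with a median of 11.18 in P7 brain (-2.07 ± 0.42). Further probe sets of Grin2b gave -1.36 and 0.19 (-1.05 with all averaged), so the size depends on the probe set. Grin3a, a subunit that lowers calcium entry, fell by 1.77 ± 0.18 and Grin2d, the GluN2D subunit of interneurons and the early brainstem, by 1.54 ± 0.19. Further probe sets gave -1.05 and -0.17 for Grin3a (-1.0 with all averaged) and -0.53 for Grin2d, and none of these met the rule. Grin3b differed by 0.67 ± 0.08 under the filter.

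AMPA and kainate receptor genes encode the fast glutamate-gated channels and their auxiliary subunits. Of 15 measured, 1 rose and 2 fell, with a median difference of 0.01 (-0.07 without the 4 arrays and -0.65 as deposited). Cacng3, an auxiliary subunit that carries AMPA receptors to the membrane, rose by 1.39 ± 0.13. The pore-forming AMPA subunits Gria1 (0.63 ± 0.10), Gria2 (0.90 ± 0.06), Gria3 (1.01 ± 0.17) and Gria4 (0.06 ± 0.08) did not meet the rule, while further probe sets of Gria3 and Gria4 gave up to 2.00 and 1.57. The kainate receptor subunits Grik1 and Grik2 fell by 1.27 ± 0.21 and 1.36 ± 0.05, but further probe sets gave -0.09 and 0.30 (averages -0.68 and -0.53), and Grik1 lost the call without the P90 D2 array 2. Of 6 metabotropic glutamate receptor genes, Grm4 alone fell (-1.16 ± 0.09), and Grm3, at 0.59, met the rule for a rise without the 4 arrays, where it had 1.14.

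GABA-A and glycine receptors are the chloride channels of inhibition. Of 15 measured subunit genes 2 rose and 2 fell, with a median of -0.19 (0.21 when probe sets were averaged). Gabrd, the delta subunit of extrasynaptic receptors, had 9.53 to 9.86 with a median of 9.72 in P90 brain, against 7.11 to 8.11 with a median of 7.69 in P7 brain (2.07 ± 0.26; 0.84 with probe sets averaged). Gabra4, a partner of the delta subunit in thalamus and hippocampus, rose by 1.15 ± 0.11, and its further probe set gave 2.76 (average 1.95). Both were higher on every P90 array than on any P7 array.

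Glra2, the alpha 2 subunit of fetal and neonatal glycine receptors, had 7.45 to 7.66 with a median of 7.51 at P90, against 10.05 to 10.42 with a median of 10.22 at P7 (-2.68 ± 0.20). Gabre, the epsilon subunit, fell by 1.79 ± 0.09 to a level below the filter. Gabra5, the alpha 5 subunit, differed by -1.09 ± 0.21 and missed the rule in B6. Gabrb2, Gabra2, Gabra3 and Gabrb1 lay between -0.27 and 0.19 at the chosen probe set, while further probe sets gave up to 3.40 for Gabrb2, 1.93 for Gabra2, 1.6 for Gabra3 and 2.32 for Gabrb1. For these subunits the probe sets therefore do not settle 1 size.

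Slc12a5, the transporter KCC2 that pumps chloride out of mature neurons, had 12.83 to 12.91 with a median of 12.89 in P90 brain, against 11.52 to 12.12 with a median of 11.62 in P7 brain (1.17 ± 0.08; further probe set 2.99, average 2.08). It was the only 1 of 8 genes for GABA synthesis and chloride transport that rose, and it lost the 2-fold call without the 4 arrays, as without the P7 D2 array 2 alone. Slc12a2, the transporter NKCC1 that brings chloride in, differed by 0.44 ± 0.14, while its further probe sets gave 2.85 and 1.88 and met the 2-fold rule. The GABA-synthesising enzymes Gad1 and Gad2 differed by 0.73 ± 0.01 and 0.99 ± 0.03, with further probe sets at 2.48 and 2.75. The list's median was 0.59 and stood at -0.05 as deposited.

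Sodium channel genes held members in both directions. Of 7 measured, 2 rose and 1 fell, with a median of 0.47 (-0.22 as deposited). Scn4b, the beta 4 subunit that enables resurgent current in fast-firing neurons, had 10.10 to 11.16 with a median of 10.44 in P90 brain, against 6.79 to 7.38 with a median of 7.15 in P7 brain. The difference was 4.11 in B6, 2.91 in D2 and 3.44 in 129S2 (mean 3.49 ± 0.60). Its stages lay apart on all arrays.

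Scn1a, the adult channel of parvalbumin interneurons that is mutated in human Dravet syndrome, had 10.34 to 10.77 with a median of 10.56 at P90, against 8.33 to 9.06 with a median of 8.73 at P7 (1.85 ± 0.07; further probe sets 4.26 and 1.74). Scn3a, the embryonic and neonatal channel, had 8.79 to 8.87 with a median of 8.83 at P90, against 10.05 to 10.41 with a median of 10.34 at P7 (-1.44 ± 0.17; -0.64 with probe sets averaged). Neither gene's stages overlapped. Scn8a, the adult channel of the axon initial segment, differed by 0.47 ± 0.11. Its further probe sets gave 1.39, which met the 2-fold rule, 0.58 and 0.09.

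Of 12 potassium and HCN channel genes 5 rose and none fell, with a median of 0.77. Kcna1, the Kv1.1 channel next to the nodes of Ranvier, had 11.41 to 11.64 with a median of 11.50 in P90 brain, against 8.80 to 9.39 with a median of 9.18 in P7 brain, with a wide gap between them (2.32 ± 0.12; further probe sets 3.48 and 3.71). Its partner Kcna2 rose by 1.90 ± 0.13, and Kcnc1, the Kv3.1 channel of fast-spiking cells, by 1.91 ± 0.05 (0.84 with probe sets averaged). Kcnj9, a G protein-gated channel, rose by 2.03 ± 0.67, although its stages overlapped as the B6 means of 9.12 at P90 and 6.31 at P7 lay below those of D2 (10.62 at P90, 8.95 at P7) and 129S2 (10.48 at P90, 8.88 at P7). Among 7 calcium channel genes none rose or fell.

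**Figure D3:**
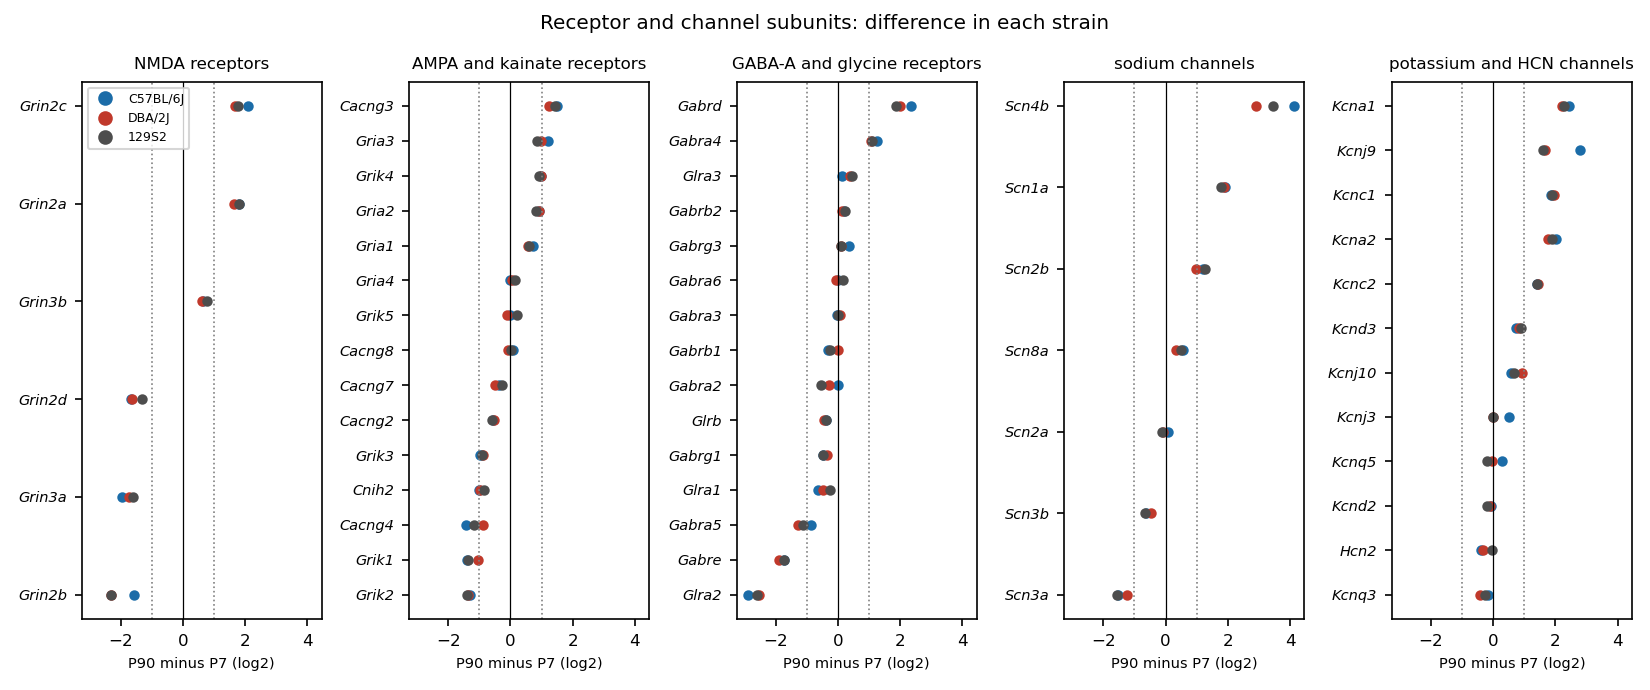
P90 minus P7 difference in log2 units for subunits of receptors and channels, with a dot for each strain and dotted lines at 1 and -1. Scn4b lies at 4.11, 2.91 and 3.44 and Glra2 at a mean of -2.68.

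Both lists of synaptic genes had medians above that of all genes, but few of their members rose, and no shift of a list was tested. Of 24 synaptic vesicle genes 3 rose and none fell, with a median of 0.49, which was -0.21 as deposited, where all genes had -0.86. Vamp1, the vesicle SNARE of fast synapses in brainstem and cord, had 10.92 to 11.54 with a median of 11.20 in P90 brain, against 8.39 to 9.10 with a median of 8.68 in P7 brain, without overlap (2.47 ± 0.26). Slc17a7, the glutamate transporter VGLUT1 of cortical synapses, rose by 1.69 ± 0.39 and Syt2, a calcium sensor of fast release, by 1.40 ± 0.18, and Slc17a7 lost the call without the P7 D2 array 1. Of 18 postsynaptic density genes 3 rose and 1 fell, with a median of 0.51 (-0.16 as deposited). Itpka, an actin-bundling kinase of spines, rose by 1.53 ± 0.38, Baiap2, a spine scaffold, by 1.44 ± 0.04 (0.85 with probe sets averaged) and Ppp1r1b, the dopamine-regulated phosphatase inhibitor DARPP-32, by 1.28 ± 0.19, whereas Nlgn3, a synaptic adhesion molecule, fell by 1.47 ± 0.10 (-0.56 with probe sets averaged). Ppp1r1b lost the call without the P7 D2 array 1.

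The cytoskeleton list moved both ways, and its counts depended on the scaling. With median centring 5 members rose and 1 fell, and as deposited none rose and 5 fell. Its 3 neurofilament genes, which set axon calibre, all rose: Nefh by 1.33 ± 0.16, Nefm by 1.13 ± 0.10 and Nefl by 1.12 ± 0.06, which lost the call without the P7 B6 array 1. The tubulins Tubb5 (-1.22 ± 0.08, but -0.78 with median centring) and Tubb6 (-1.93 ± 0.22, or -1.12 with probe sets averaged) fell. The other 11 of 16 members did neither, with a list median of 0.35 (-0.26 as deposited). Pvalb, the calcium buffer of fast-spiking interneurons and Purkinje cells, had 10.41 to 10.87 with a median of 10.74 in P90 brain, against 7.49 to 8.02 with a median of 7.68 in P7 brain, a difference of 2.95 in B6, 2.94 in D2 and 3.04 in 129S2. Its stages lay well apart. Hpcal4 and Calb1, other neuronal calcium-binding proteins, rose by 1.37 ± 0.16 and 1.18 ± 0.05, and the remaining 7 of that list of 10 did not meet the rule.

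The extracellular matrix of neural tissue moved both ways, with 2 of 10 genes up and 3 down. Hapln4, a link protein of perineuronal nets, had 9.46 to 9.87 with a median of 9.80 in P90 brain, against 6.88 to 7.29 with a median of 6.98 in P7 brain, without overlap (2.71 ± 0.13). Hapln2, the link protein at nodes of Ranvier, rose by 2.35 ± 0.11, with a P7 level under the filter. The glycoprotein Tnc fell by 2.58 ± 0.22, the proteoglycan Vcan by 2.23 ± 0.22 (-0.80 with probe sets averaged) and Tnr, a further tenascin, by 1.38 ± 0.26.

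Astrocyte genes were mixed. Of 20 measured, 4 rose and none fell, with a median of 0.63; 5 rose without the 4 arrays and 8 with median centring. Ntsr2, a neurotensin receptor of astrocytes, rose by 2.33 ± 0.41, the gap junction gene Gjb6 by 1.78 ± 0.48, S100b by 1.72 ± 0.09 and Aldoc, the brain aldolase, by 1.14 ± 0.15. Aldoc had 0.75 with probe sets averaged and lost the call without the P7 D2 array 2. The 16 other members, which include the intermediate filament and the main water channel of astrocytes, did not meet the rule.

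Of 17 microglia genes 1 rose and none fell, with a median of 0.63 (-0.15 as deposited). Cx3cr1, the fractalkine receptor, had 9.0 to 9.34 with a median of 9.11 in P90 brain, against 6.76 to 8.30 with a median of 7.00 in P7 brain, without overlap (1.77 ± 0.03). Of 6 genes of an early postnatal microglial state, the growth factor Igf1 fell by 1.46 ± 0.20 (further probe sets -1.15 and 0.27, average -0.51) and the lipase Lpl by 1.93 ± 0.45, and neither gene is limited to microglia. B2m, the light chain of class I histocompatibility molecules, rose by 1.30 ± 0.21 as the only 1 of 12 antigen presentation genes, and of 8 interferon response genes Ifit3 (2.45 ± 0.30) and Ifi27 (1.11 ± 0.13) rose. Ifi27 lost the call without the 4 arrays, and without the P7 129S2 array 3 alone.

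The deepest fall of any gene that passed the filter was that of Aplnr, the apelin receptor of sprouting endothelium. It was the only 1 of 5 measured genes of the sprouting endothelium list that fell, and the list's median was -0.03, with members up to 0.38. Aplnr had 4.77 to 5.25 with a median of 4.99 in P90 brain, against 9.67 to 10.86 with a median of 10.40 in P7 brain. The difference was -5.62 in B6, -4.85 in D2 and -5.54 in 129S2 (mean -5.33 ± 0.42), and another probe set gave -1.79. The stages were separated by a wide gap, with the P90 signal below the filter. Of 11 basement membrane and matrix genes 4 fell and none rose, with a median of -0.99. These were Fbn2 (-2.92 ± 0.11), a fibrillin of growing tissue, Nid1 (-2.41 ± 0.28), which links laminin to collagen, Col5a2 (-1.67 ± 0.25) and the laminin chain Lamb1 (-1.43 ± 0.10). With probe sets averaged, Fbn2 had -1.75, Nid1 -0.69 and Lamb1 -0.37. Of 18 endothelial and pericyte genes, the blood-brain barrier transporters Slco1a4 (1.56 ± 0.25) and Abcb1a (1.28 ± 0.16) rose and none fell.

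Immediate early genes, which neurons switch on within minutes of activity, were higher in P90 brain. Of 19 measured, 10 rose and none fell, with a median of 1.46 (9 rose and the median was 1.39 without the 4 arrays). Arc, a regulator of synaptic strength, had 9.94 to 11.34 with a median of 11.01 at P90, against 6.93 to 7.28 with a median of 7.14 at P7. The difference was 3.86 in B6, 4.06 in D2 and 3.39 in 129S2 (mean 3.77 ± 0.34). The P90 arrays spread over a wider range than the P7 arrays, and no array of one stage entered the range of the other.

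Nr4a1, an orphan nuclear receptor, had 10.62 to 11.71 with a median of 11.51 in P90 brain, against 8.93 to 9.31 with a median of 9.10 in P7 brain (2.34 ± 0.21). Egr2, a zinc finger factor, had 6.82 to 9.14 with a median of 8.55 at P90, against 5.89 to 6.78 with a median of 6.14 at P7 (2.22 ± 0.85). Dusp1, a phosphatase of MAP kinases, had 10.51 to 11.26 with a median of 11.04 at P90, against 8.66 to 9.01 with a median of 8.79 at P7 (2.16 ± 0.13). All 3 were higher on every P90 array, and the margin was narrowest for Egr2. Egr2 lost the 2-fold call without the P90 129S2 array 2, and without the 4 arrays its 129S2 difference was 0.69. The labels give no time of day for the dissections.

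Promoters of these 3 genes are shown because immediate early genes are known for the cyclic AMP response element (CRE). In the 200 bases before the annotated start, capitals mark the element TGACGTCA and its short form TGACG or CGTCA, which the full element contains on both strands (RefSeq, build GRCm38.p6, strand of the gene).
Nr4a1, chr15:101266646-101266845, plus strand: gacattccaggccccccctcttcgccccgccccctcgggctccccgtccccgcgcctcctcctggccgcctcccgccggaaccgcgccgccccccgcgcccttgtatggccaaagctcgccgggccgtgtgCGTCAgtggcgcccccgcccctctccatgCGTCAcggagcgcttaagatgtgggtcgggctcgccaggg
Egr2, chr10:67535299-67535498, plus strand: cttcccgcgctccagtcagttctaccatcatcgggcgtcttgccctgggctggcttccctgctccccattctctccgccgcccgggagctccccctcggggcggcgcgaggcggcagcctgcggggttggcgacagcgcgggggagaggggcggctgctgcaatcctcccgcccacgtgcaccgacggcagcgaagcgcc
Dusp1, chr17:26508473-26508672, minus strand: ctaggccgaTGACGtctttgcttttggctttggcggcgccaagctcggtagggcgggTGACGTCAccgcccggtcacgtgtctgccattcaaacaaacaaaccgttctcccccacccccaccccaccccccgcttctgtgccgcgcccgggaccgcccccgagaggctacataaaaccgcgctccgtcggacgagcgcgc

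The short form was found within 250 bases before the start in 7 of 8 immediate early genes that rose and have a promoter sequence (87.5%), against 23.1% of promoters of measured genes and 17.8% of all promoters. Egr2 is the 1 of 8 without it. The full element was found in 2 of the 8 (25%), Dusp1 among them, against 2.23% of measured genes and 1.6% of all. The letters alone do not show that a factor binds. Immediate early genes that did not rise were not searched, so these shares do not tie the element to the rise.

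Clock genes included 3 of 17 that rose and none that fell, with a median of 0.71. Dbp, a clock-driven transcription factor, had 10.21 to 11.23 with a median of 10.94 in P90 brain, against 8.33 to 9.01 with a median of 8.66 in P7 brain, without overlap (2.10 ± 0.44). Bhlhe40, a repressor of the clock, rose by 1.66 ± 0.22 and Hlf, a relative of Dbp, by 1.25 ± 0.30 (1.88 with probe sets averaged), which lost the call without the P90 D2 array 2.

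Energy and lipid metabolism moved by smaller steps. Of 14 glycolysis genes, Pfkm (1.24 ± 0.08), the muscle-type phosphofructokinase, and Ldhb (1.23 ± 0.09), the heart-type lactate dehydrogenase, rose and none fell, with a median of 0.68; 6 rose with median centring. Of 31 oxidative phosphorylation genes only Sdha, a subunit of complex II, rose (1.04 ± 0.02), with a median of 0.35 (-0.24 as deposited). Slc16a1, the carrier that brings ketone bodies and lactate across the blood-brain barrier, fell by 1.19 ± 0.14, as 1 of 9 genes for ketone and fatty acid use, whose median was -0.68. It lost the call without the 4 arrays, as without the P7 D2 array 2 alone, with a D2 difference of -0.98, so that none of the 9 then fell.

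Of 19 cholesterol synthesis genes 3 fell and none rose, with a median of -0.48 (4 fell without the 4 arrays). Idi1 (-1.25 ± 0.07), Lss (-1.25 ± 0.11) and Mvd (-1.21 ± 0.03) encode enzymes between mevalonate and lanosterol, and Lss had -0.54 with probe sets averaged. In liver of the same stages 13 of the 19 genes rose by the same rule and none fell, with a median of 1.85, and the difference between tissues was not tested. Abcg1, which exports cholesterol from cells, rose in brain by 1.10 ± 0.08, but lost the call without any 1 of 4 arrays of 129S2 (P7 arrays 1 and 3, P90 arrays 1 and 2). Of 24 cytosolic ribosome genes 1 fell, Rplp0 (-1.13 ± 0.08), with a median of -0.12, which was 0.14 with median centring.

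The courses from E14.5 place these groups in time. With all 36 brain arrays normalized together, the median myelin signal was 6.32 at E14.5, 6.48 at P1, 7.48 at P7 and 10.45 at P90. For cell cycle genes the medians were 10.22, 8.42, 8.18 and 6.26 in the same order of stages. The cell cycle median was lower at P1 than at E14.5, nearly level at P7 and lower again at P90, whereas the myelin genes' own changes had medians of 0.21 for P1 minus E14.5, 0.57 for P7 minus P1 and 2.44 for P90 minus P7.

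New neuron genes had medians of 12.48 at E14.5, 12.50 at P1, 11.59 at P7 and 9.50 at P90. Neural progenitor genes had 10.64, 9.0, 8.72 and 8.52. The median over these 13 genes of each gene's own change was -1.5 for P1 minus E14.5, -0.20 for P7 minus P1 and -1.01 for P90 minus P7, so the median of the levels hides a later step. Potassium and HCN channel genes had 7.35, 8.48, 9.47 and 10.82 and were higher at each later stage. Immediate early genes had 8.21, 8.84, 8.86 and 9.91.

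**Figure D4:**
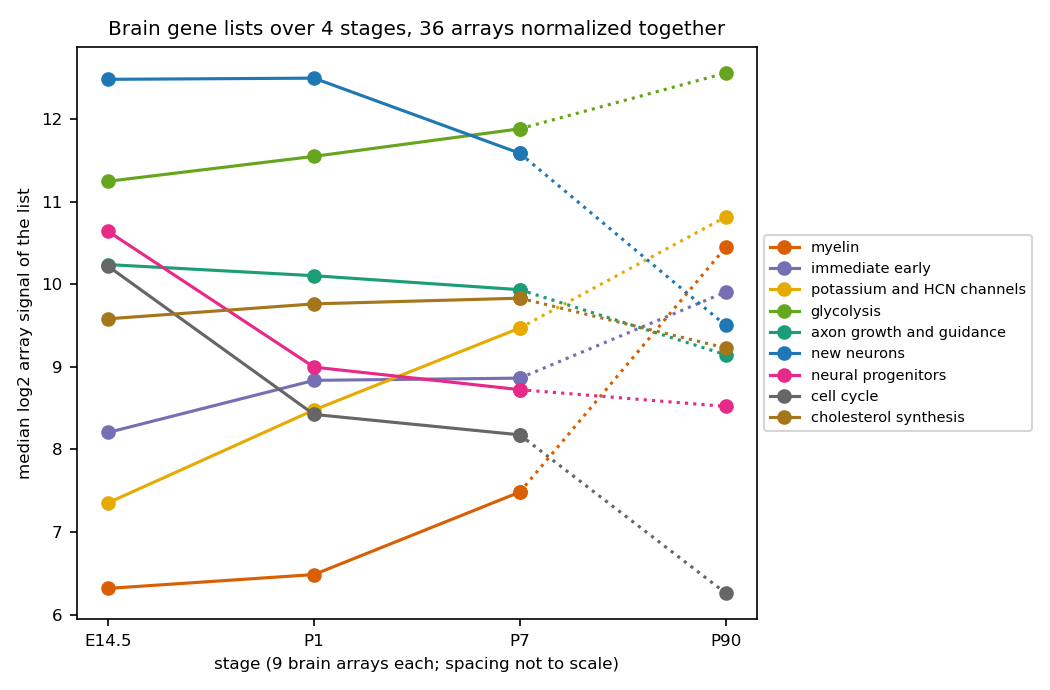
Median log2 signal of gene lists over the stages E14.5, P1, P7 and P90 in brain (36 arrays normalized together), with solid lines for E14.5 to P7 and dotted lines for P7 to P90. The myelin list ends at 10.45 and the new neuron list at 9.50 at P90.

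Whether the step was the same in the 3 strains was tested with limma as a strain by stage interaction, an F test over the contrasts of the P90 minus P7 difference between strains. With Benjamini-Hochberg adjustment, a threshold of 0.05 and a gap of at least 1.5-fold between strains, 224 of 12611 genes were called (1.78%). The count was 336 without the P7 129S2 array 2, 320 without the P90 129S2 array 2 and 466 without the 4 arrays that stood apart. Nothing in the labels beyond the replicate numbers says that the arrays come from separate animals, so these p-values measure the spread between these samples. A scale that differs between the 2 normalization sets could also enter them. P7 arrays numbered 1, and those numbered 2, deviated alike across strains, which the test does not model.

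Pttg1, securin, which holds sister chromatids together until anaphase, had the strongest interaction. Its difference was 1.27 in B6, -1.72 in D2 and -1.08 in 129S2, and the D2 minus B6 gap was -2.99 ± 0.12 (SE, limma adjusted p = 3.27e-10). The B6 mean was 12.22 at P90 and 10.94 at P7, the D2 mean 8.88 at P90 and 10.60 at P7, and the 129S2 mean 8.75 at P90 and 9.83 at P7. Its further probe sets gave 1.69, -1.12 and -0.92, and -0.66, -1.46 and -1.24, in the order B6, D2 and 129S2. Pttg1 thus went up in B6 and down in the other strains at 2 of its 3 probe sets, and at the remaining probe set B6 also had the least fall.

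Rpgrip1, a ciliary protein of photoreceptors, differed by 1.19 in B6, -0.05 in D2 and -1.59 in 129S2 (129S2 minus B6 -2.78 ± 0.17 SE, limma adjusted p = 1.06e-07). S100a5, a calcium-binding protein of olfactory neurons, differed by 2.84 in B6, 0.70 in D2 and 0.68 in 129S2 (gap -2.16 ± 0.19 SE, limma adjusted p = 3.45e-06). The S100a5 means at P90 were 7.28 in B6, 5.14 in D2 and 5.13 in 129S2, against 4.45, 4.44 and 4.45 at P7 in the same order. Only the B6 mean at P90 lay above the filter. The D2 and 129S2 differences of S100a5 therefore lie wholly in the dim range, and the size of its gap rests on dim signals.

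In 2 further genes B6 stood apart from the others. Efhd2, a calcium-binding adaptor, differed by 2.17 in B6, 0.76 in D2 and 0.50 in 129S2 (limma adjusted p = 2.76e-08), while its further probe set gave 1.13, 0.82 and 0.82. Gnb1, a beta subunit of G proteins, differed by -1.85 in B6, -0.28 in D2 and -0.26 in 129S2 (limma adjusted p = 1.82e-08), and its further probe set gave -1.33, 0.14 and 0.08.

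**Figure D5:**
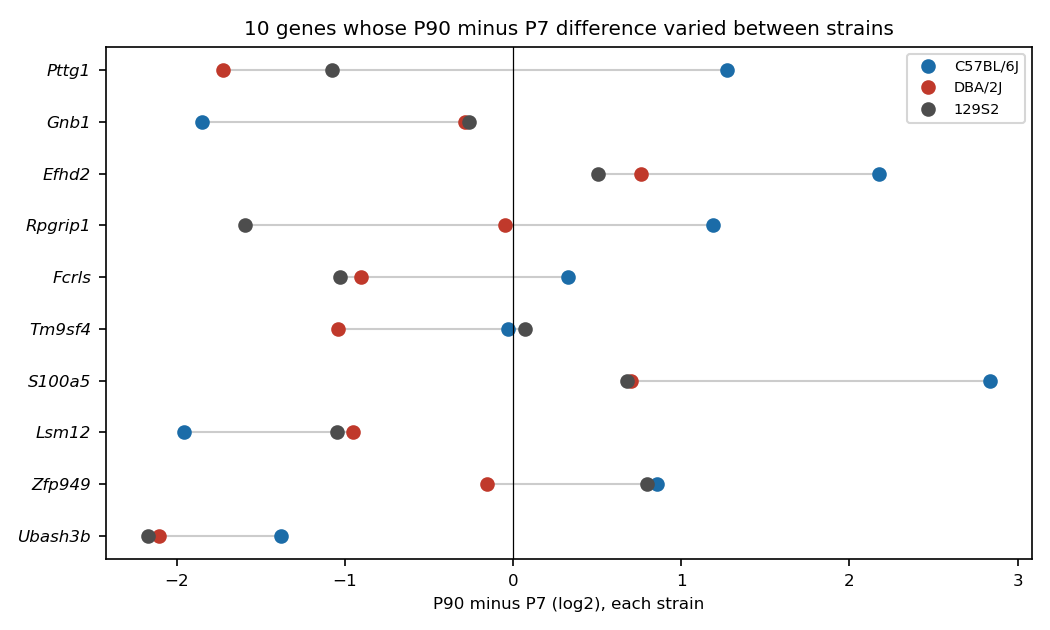
P90 minus P7 difference in log2 units in each strain for the 10 genes with the strongest strain by stage interaction. Pttg1 lies at 1.27 in B6, -1.72 in D2 and -1.08 in 129S2, and S100a5 at 2.84, 0.70 and 0.68.

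Outside the lists, the genes furthest apart were of varied kinds. Among the 15 that rose most were Ppp1r14a, an inhibitor of myosin phosphatase (4.28), Ano3, an anoctamin (4.28), Uroc1, an enzyme of histidine breakdown (3.92, but 1.39 with probe sets averaged), Fam107a, an actin-associated protein (3.80), and Ptgs2, the inducible cyclooxygenase (3.35). Among the 15 that fell most were Mkrn3, an imprinted gene whose loss causes early puberty in humans (-4.79), Trim67, a neuronal ubiquitin ligase (-4.22), Macroh2a3 (-4.00, -2.55 averaged), Ptx3, a secreted pentraxin (-3.70, -2.15 averaged), B3gnt5, a glycolipid-building glycosyltransferase (-3.68, -1.95 averaged), Cxadr, a cell adhesion molecule and virus receptor (-3.53, -1.49 averaged), and Sla, a Src-like adaptor (-3.40).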

How the data were processed

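Per the submitters' processing notes, the deposited values are log2 signals made by the authors with RMA, whose version is not given in the sources used here. On average over the other arrays of its stage, each array had 2.17 to 3.80% of values equal to the last digit. Between stages the share was 0%, so the authors had normalized the stages apart. The 18 arrays were quantile normalized together in R 4.3.3 with limma 3.58.1. Of 45101 probe sets 34958 carried exactly 1 gene symbol. Differences were taken within strains, without a test. The planned interaction was fitted with lmFit and eBayes, with Benjamini-Hochberg adjustment. It was also run on simulated data whose noise was independent between arrays. Those data lack the deviations that P7 arrays numbered 1 and 2 shared across strains, so the run does not check the test under them. The members and gene lists were chosen with earlier results of these data known. Named genes are the 15 highest and 15 lowest, up to 4 members of each list in its main direction and 3 in the other, the receptor and channel lists, and the 10 strongest interactions. The number of arrays limits the precision. The median difference of 18 spike-in controls was 0.03 (SD 0.47), 0.40 with median centring and -0.41 as deposited.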

Additional observations from a re-analysis of the deposited data

Results flagged for a closer look

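For 23 of the named genes the P90 minus P7 difference itself differed between strains, by limma's interaction test with adjusted p from 3.27e-10 to 0.0493. Of the 23, 9 lost the call with the 36 brain arrays in the fit, 7 with probe sets averaged and up to 6 without 1 array. Values are the largest gap between the differences of 2 strains, in log2 units. No explanation was tested.

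Among genes discussed for myelin and glia, Mog had a D2 minus B6 gap of -0.73 ± 0.15 (SE, limma adjusted p = 0.0298), with the sheath gene higher at P90 in all 3 strains. Bcas1 had a D2 minus B6 gap of -0.61 ± 0.12 (limma adjusted p = 0.0188). Gjb6 had a 129S2 minus B6 gap of -0.90 ± 0.13 (limma adjusted p = 0.00145), and Lpl of 0.78 ± 0.14 (limma adjusted p = 0.0047). These 4 genes kept 1 direction in the 3 strains and differed in size.

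Among channels and receptors, the D2 minus B6 gap was -1.20 ± 0.22 for Scn4b (limma adjusted p = 0.0142) and -0.74 ± 0.15 for Grin2b (limma adjusted p = 0.0113). Kcnj9 had a 129S2 minus B6 gap of -1.20 ± 0.13 (limma adjusted p = 4.57e-05). The apelin receptor gene Aplnr had a D2 minus B6 gap of 0.77 ± 0.18 (limma adjusted p = 0.0414). The fetal growth regulator Dlk1 rose by 1.89 in B6, 2.81 in D2 and 2.83 in 129S2, a 129S2 minus B6 gap of 0.94 ± 0.20 (limma adjusted p = 0.0156), while its further probe set gave a mean difference of 0.24. With probe sets averaged Dlk1 had 1.37 in place of 2.51. The noncoding RNA Neat1, the scaffold of paraspeckles, had a D2 minus B6 gap of -0.88 ± 0.14 (limma adjusted p = 0.00198). Its mean difference was 2.31, but its further probe set went the other way at -1.53, and the average of its probe sets was 0.39.

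Liver-type transcripts fell by unequal amounts. The D2 minus B6 gap was -2.07 ± 0.36 for Alb (limma adjusted p = 0.00728), -1.53 ± 0.33 for Ahsg, the serum glycoprotein fetuin A (limma adjusted p = 0.0376), and -1.29 ± 0.29 for the apolipoprotein Apoa2 (limma adjusted p = 0.0493).

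Of the 10 genes with the strongest interaction, Pttg1 had a D2 minus B6 gap of -2.99, Rpgrip1 a 129S2 minus B6 gap of -2.78, S100a5 of -2.16, Efhd2 of -1.67 and Gnb1 of 1.59, as described above. Fcrls, a receptor-like protein of microglia, differed by 0.33 in B6, -0.90 in D2 and -1.03 in 129S2, a gap of -1.35 ± 0.09 (limma adjusted p = 1.06e-07). Tm9sf4, a membrane protein of the endosomal pathway, had a 129S2 minus D2 gap of 1.11 ± 0.09 (limma adjusted p = 3.45e-06). Lsm12, an RNA-binding protein, fell by 1.95 in B6, 0.95 in D2 and 1.05 in 129S2, and the D2 minus B6 gap was 1.01 ± 0.09 (limma adjusted p = 9.09e-06). The zinc finger gene Zfp949 had a D2 minus B6 gap of -1.01 ± 0.10 (limma adjusted p = 1.87e-05). Its differences were 0.86, -0.15 and 0.79 in B6, D2 and 129S2, but its further probe set gave 0.81, 0.54 and 0.68. Ubash3b, a phosphatase that dampens tyrosine kinase signals, had a 129S2 minus B6 gap of -0.79 ± 0.08 (limma adjusted p = 2.05e-05), but its further probe sets gave 0.07, -0.19 and -0.37, and -0.42, -0.24 and -0.35, in B6, D2 and 129S2. With probe sets averaged its mean difference was -0.80 in place of -1.88.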

How the results depend on the processing

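Joint normalization decides the counts: on the values as deposited 152 genes were at least 2-fold higher in each strain and 4761 lower, and 3.09% of the genes counted were higher, against 35% with quantile normalization, 43.5% with median centring (766 higher, 996 lower) and 48.1% with the mean of a gene's probe sets (699 higher, 753 lower). A filter at 8.62 left 406 higher and 613 lower, since fewer genes were tested. With all 36 arrays normalized together the counts were 615 and 1131, and with no filter 787 and 1536. Leaving out each array in turn gave 610 to 636 higher, 1154 to 1190 lower and 172 to 336 interaction calls, the most without the P7 129S2 array 2. Interaction calls numbered 142 with the 36 brain arrays sharing the spread, 189 with probe sets averaged, 225 with trended variance and 259 with the replicate number as a block. Deviations from the group means correlated at -0.14 to 0.69 over 45 pairs of same-numbered arrays within and between the stages. Within P7 the correlations were 0.41 to 0.60 for arrays numbered 1 and 0.48 to 0.67 for those numbered 2. P7 pairs numbered 3 ran from -0.14 to 0.69, and P7 pairs of different numbers had a median of -0.31. P7 arrays numbered 1 and 2 thus deviated alike across strains, and the labels do not say what the numbers share. The replicate block, which was common to both stages, changed no call among the 23 named interactions. With the 36 brain arrays in the fit 9 of them lost the call, and with probe sets averaged 7 did. Leaving out 1 array lost up to 6 of these calls, the most without the P90 B6 array 1 or 3. Settings added after seeing the data left out the P7 arrays numbered 2 (615, 1216 and 336) and also the P90 129S2 array 2 (612, 1190 and 466). Averaging probe sets reversed Srrm4, a splicing factor of neuronal microexons (0.20 in place of -1.14), and moved 49 named genes by over 1.5 times. The cause of these changes was not tested. A level near or under the filter of 6.83 is dim, and this applied to the lower stage of 222 of the 630 and 518 of the 1169 genes.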

Other observations

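Regulators of RNA splicing moved in both directions, with 3 of 20 measured genes that rose, 3 that fell and a median of -0.30 (0.10 with probe sets averaged). Rbfox2 (1.95 ± 0.12), Mbnl2 (1.70 ± 0.27) and Mbnl1 (1.64 ± 0.04), which drive mature exon choice in brain and muscle, rose. Further probe sets gave 0.87, 0.10 and -0.35 for Rbfox2 (0.64 with all averaged) and 3.19, 2.38, 0.35 and -0.81 for Mbnl2, and Mbnl1 averaged 1.03. Celf2 fell by 1.76 ± 0.07, Nova2, a neuronal splicing factor, by 1.14 ± 0.11 and Srrm4 by 1.14 ± 0.06. Further probe sets of Celf2 gave 1.93, -0.50, -0.70 and -1.01, so this gene's direction depends on the probe set. With probe sets averaged, Celf2 had -0.28, Nova2 -0.51 and Srrm4 0.20. Nova2 lost the 2-fold call without the 4 arrays that stood apart, where its 129S2 difference was -0.87, and without the P7 129S2 array 2 or the P90 129S2 array 2 or 3 alone.

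Of 15 Wnt and Hedgehog pathway genes 4 fell and none rose, with a median of -0.45. Tcf7l2, a nuclear effector of Wnt signals that is high in thalamus and in oligodendrocyte precursors, had 6.92 to 7.70 with a median of 7.54 in P90 brain, against 9.34 to 10.71 with a median of 10.37 in P7 brain, without overlap (-2.81 ± 0.48). Its further probe sets ran from -1.90 to 0.18 (-1.43 with all averaged). The secreted Wnt inhibitors Sfrp2 and Sfrp1 fell by 1.88 ± 0.14 and 1.81 ± 0.10, and the ligand Wnt7a by 1.33 ± 0.11 (-0.55 with probe sets averaged). Mycn, a proto-oncogene of dividing precursors, fell by 2.30 ± 0.06, as 1 of 7 genes of cerebellar granule precursors, while its further probe sets gave -0.20 and -0.52 (-1.01 with all averaged). Bbc3, a trigger of apoptosis also called PUMA, fell by 2.26 ± 0.19 as 1 of 12 apoptosis genes. Casp9 of that list, at -1.15, met the rule for a fall without the 4 arrays, where it had -1.25.

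Growth factor genes held 1 of 11 that rose, Fgf1 (2.14 ± 0.05), and 1 that fell, Igfbp2 (-1.40 ± 0.06), which binds insulin-like growth factors. Igf2, a fetal growth factor, fell by 1.26 ± 0.20 (-0.72 with probe sets averaged) as the only 1 of 20 imprinted and fetal growth genes that fell. The metallothioneins Mt1 (1.86 ± 0.25) and Mt2 (1.27 ± 0.23), which bind zinc and copper, rose. The glucocorticoid receptor gene Nr3c1 rose by 1.10 ± 0.07 (1.78 with probe sets averaged) as the only 1 of 11 genes of hormone receptors and targets. Igf2, Mt2 and Nr3c1 lost the call without the 4 arrays, with D2 differences of -0.97, 0.96 and 0.98, and each also without the P7 D2 array 2 alone. Mt2 lost it without the P7 D2 array 3 as well.

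Choroid plexus and meningeal markers differed between the stages, and their part in the results above was not tested. Of 8 choroid plexus genes 3 rose, F5 (2.20 ± 0.24), Kl (2.03 ± 0.13) and Clic6 (1.18 ± 0.09), and none fell. With probe sets averaged these were 1.15, 0.97 and 0.50, a further probe set of Clic6 gave -0.17, and Clic6 lost the call without the P7 D2 array 3. Of 7 meningeal genes Col3a1 (-2.48 ± 0.43) and Col1a2 (-1.41 ± 0.28) fell and none rose (Col1a2 lost the call without the 4 arrays that stood apart, and without the P7 D2 array 2 alone).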
